A study of Mus musculus with 20 samples.

Results

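The subject of this report is a set of 10 genes that mark macrophages in general or code for the chains of complement C1q, namely Csf1r, Adgre1, Cd68, Lyz2, C1qa, C1qb, C1qc, Tyrobp, Ms4a7 and Aif1, followed through the mouse abdominal aorta. The genes were taken as a fixed list of symbols that was chosen with earlier results of these data known. The Ensembl transcripts listed for each symbol were added up to 1 value per gene. All 10 were among the 12645 genes tested, of 15346 genes with a listed annotated transcript. RNA was sequenced from 5 libraries of mice labelled KO and infused with angiotensin II (Ang II) at 500 ng/kg/min, 5 libraries of WT mice infused with Ang II at the same dose, and 5 libraries of WT mice infused with saline. Ang II, a peptide of the renin-angiotensin system, makes arteries contract and is infused to make mice hypertensive. DAPK1, a protein kinase under the control of calmodulin, is the gene that the title of the series names, and the labels give no strain, age, sex, duration of infusion or kind of allele. A set of 5 libraries of KO mice given saline lists 2025 transcripts, 0 of the 10 genes among them, so the effect of Ang II within KO mice was not analysed here for these genes. Libraries are called by their titles, and replicate values below follow the order KOAng_II402, KOAngII537, KOAngII560, KOAngII612 and KOAngII628 for KO Ang II, WTAng_II519, WTAng_II536, WTAngII568, WTAngII580 and WTAngII581 for WT Ang II, and WTNS_369, WTNS_373, WTNS_523, WTNS_547 and WTNS_550 for WT saline. The labels do not say outright that each library is a separate animal, so p-values measure the spread between these libraries.

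Levels are in FPKM, which divides fragment numbers by transcript length and by library depth, and the steps between low values put the depth at 70.2 to 73.5 megareads per library in KO Ang II, 59.0 to 74.5 megareads in WT Ang II and 62.8 to 67.0 megareads in WT saline. Dapk1 itself was listed at 5.0 to 13.8 FPKM in KO Ang II, 3.96 to 19.9 FPKM in WT Ang II and 9.48 to 15.4 FPKM in WT saline. These ranges overlap, RNA outside a deleted part of the gene would leave them as they are, and each direction drawn from the KO label is therefore unchecked. The tissue was bulk aorta: fewer cells of a type and less RNA per cell cannot be told apart. Smooth muscle markers summed to 6745 to 12288 FPKM in KO Ang II, 8304 to 17161 FPKM in WT Ang II and 6909 to 15181 FPKM in WT saline, so the labelled tissue carried its defining markers in every library, and adipocyte and erythroid markers were present as well.

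Macrophages are phagocytes of the innate immune system, and those of the arterial wall live mainly in the adventitia. Their survival depends on the receptor Csf1r and its ligands Csf1 and Il34. C1q, the recognition molecule of the classical complement pathway, is built from an A, a B and a C chain, and macrophages are its main source in most tissues, which sets it apart from the many complement proteins made by the liver. Tyrobp, also called DAP12, is a transmembrane adaptor with an ITAM motif that signals for receptors such as Trem2. Cd68 is a glycoprotein of the lysosome and late endosome, Lyz2 is the M lysozyme of myeloid cells, Adgre1 codes for the F4/80 antigen, and Aif1 codes for the actin-binding protein IBA1. In the mouse Lyz2 is also expressed in neutrophils and monocytes.

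The C1q genes lie side by side on the minus strand of chromosome 4 in GRCm38, with C1qb at 136880129 to 136886187, C1qc at 136889804 to 136893065 and C1qa at 136895917 to 136898803. Lyz2 lies on chromosome 10 at 117277331 to 117282321 on the minus strand, next to its near copy Lyz1 at 117287797 to 117292868. Cd68 lies on chromosome 11 at 69664213 to 69666153 on the minus strand, Tyrobp on chromosome 7 at 30413760 to 30417585 on the plus strand, and Ms4a7 on chromosome 19 at 11321039 to 11336146 on the minus strand. Aif1 at 35170991 to 35176068 on the minus strand and Adgre1 at 57358691 to 57483527 on the plus strand are both on chromosome 17.

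Promoter sequences show what the start sites of these genes have in common in their letters. RefSeq promoters in GRCm38.p6, from 250 bases before to 50 bases after the gene start, were matched for 6 of the 10 genes (Aif1, C1qb, C1qc, Cd68, Lyz2 and Ms4a7). They were searched on both strands for AGGAAGT, the core of an ETS or PU.1 type site, TGANTCA, the core of an AP-1 type site, and GAAANNGAA, the core of an IRF type site. C1qb, C1qc and Lyz2 are printed because they hold the same ETS type letters, and Cd68 because it holds the AP-1 type letters at 2 places. Capitals mark the matches, and the coordinates are chr4:136886151-136886450 for C1qb, chr4:136892865-136893164 for C1qc, chr10:117282223-117282522 for Lyz2 and chr11:69666121-69666420 for Cd68, all on the minus strand and written 5′ to 3′.
C1qb: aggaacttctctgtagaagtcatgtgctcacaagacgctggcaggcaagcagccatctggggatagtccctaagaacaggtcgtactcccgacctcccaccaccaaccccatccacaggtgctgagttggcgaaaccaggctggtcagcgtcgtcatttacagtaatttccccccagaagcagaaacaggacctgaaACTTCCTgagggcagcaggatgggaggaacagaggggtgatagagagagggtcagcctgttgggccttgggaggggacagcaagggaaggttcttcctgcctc
C1qc: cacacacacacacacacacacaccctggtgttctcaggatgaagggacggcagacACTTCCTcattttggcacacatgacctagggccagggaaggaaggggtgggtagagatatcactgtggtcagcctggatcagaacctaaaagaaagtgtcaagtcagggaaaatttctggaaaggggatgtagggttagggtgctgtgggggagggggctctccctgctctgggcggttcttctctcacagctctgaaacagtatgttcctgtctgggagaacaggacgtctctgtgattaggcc
Lyz2: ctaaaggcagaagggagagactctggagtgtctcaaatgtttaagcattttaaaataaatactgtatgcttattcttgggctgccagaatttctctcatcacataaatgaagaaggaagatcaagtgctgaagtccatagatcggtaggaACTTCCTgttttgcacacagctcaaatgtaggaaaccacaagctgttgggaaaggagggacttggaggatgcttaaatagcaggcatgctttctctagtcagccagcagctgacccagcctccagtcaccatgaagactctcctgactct
Cd68: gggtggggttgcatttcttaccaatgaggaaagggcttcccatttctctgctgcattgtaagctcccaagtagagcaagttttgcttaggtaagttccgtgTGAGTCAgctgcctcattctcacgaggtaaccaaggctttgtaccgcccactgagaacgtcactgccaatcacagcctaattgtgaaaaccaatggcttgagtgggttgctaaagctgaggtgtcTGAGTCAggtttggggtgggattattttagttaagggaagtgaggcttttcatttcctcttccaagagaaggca
AGGAAGT, read here from the other strand, begins at position -53 of the C1qb promoter, -195 of C1qc and -100 of Lyz2, counted from the gene start. It occurs in 9.35% of the 32851 promoters of the same length. TGANTCA begins at -149 and -24 in Cd68 and at -81 in 1 of the start sites of Ms4a7, and it occurs in 7.81% of the promoters. GAAANNGAA, which occurs in 8.56% of the promoters, was matched in Aif1 and in both start sites of Ms4a7 but in none of the 4 printed here. A match is a run of letters and not a measured binding site.

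Lyz1 and Lyz2 differ at 22 of the 447 bases of their coding sequences, an identity of 95.1%. Printed are the 120 bases from position 37 to 156 of the coding sequence, which hold 14 of those differences. They were picked as the stretch of that length with the most differences. Reads from other parts of the coding sequence can be harder to tell apart. Capitals mark the bases that differ.
Lyz1: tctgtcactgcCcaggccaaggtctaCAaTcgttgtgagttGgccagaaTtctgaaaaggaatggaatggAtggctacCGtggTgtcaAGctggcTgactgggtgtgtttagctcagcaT
Lyz2: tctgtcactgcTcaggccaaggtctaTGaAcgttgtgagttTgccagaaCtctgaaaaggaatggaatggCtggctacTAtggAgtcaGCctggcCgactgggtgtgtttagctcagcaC
Of all windows of 50 bases in the Lyz2 transcript 15.4% occur unchanged in the Lyz1 transcript, of windows of 100 bases 1.97% and of windows of 150 bases 0%. How the authors' counting split shared reads is not given in the sources used here, so both genes are uncertain. These shares are of Lyz2 windows. Lyz2 averaged 177.6 FPKM over the 15 libraries and Lyz1 11.1 FPKM, so misplaced shared reads would weigh more on Lyz1. The part of Lyz2 reads in the Lyz1 values was not tested.

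The 10 genes spanned a wide range of levels, and FPKM is a value per length, so genes can be set side by side. Each level is that of the listed Ensembl transcripts and may be a part of the gene's whole level. Lyz2 was the highest of the 10 in every library, with a mean of 177.6 FPKM over the 15 libraries. C1qa averaged 49.7 FPKM, C1qb 44.5 FPKM and C1qc 35.8 FPKM. Csf1r at 18.6 FPKM and Tyrobp at 17.5 FPKM came next, followed by Adgre1 at 6.02 FPKM and Cd68 at 5.36 FPKM. Aif1 at 1.55 FPKM was the lowest of the members on average, and Ms4a7, which had the next lowest values, was listed at 0 in 1 library. The order among neighbours is loose: in each group the range of C1qb overlapped those of C1qa and C1qc, and that of Csf1r overlapped that of Tyrobp. C1qa and C1qc overlapped in KO Ang II and WT saline, while in WT Ang II the lowest C1qa value lay just above the highest C1qc value.

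**Figure D1:**
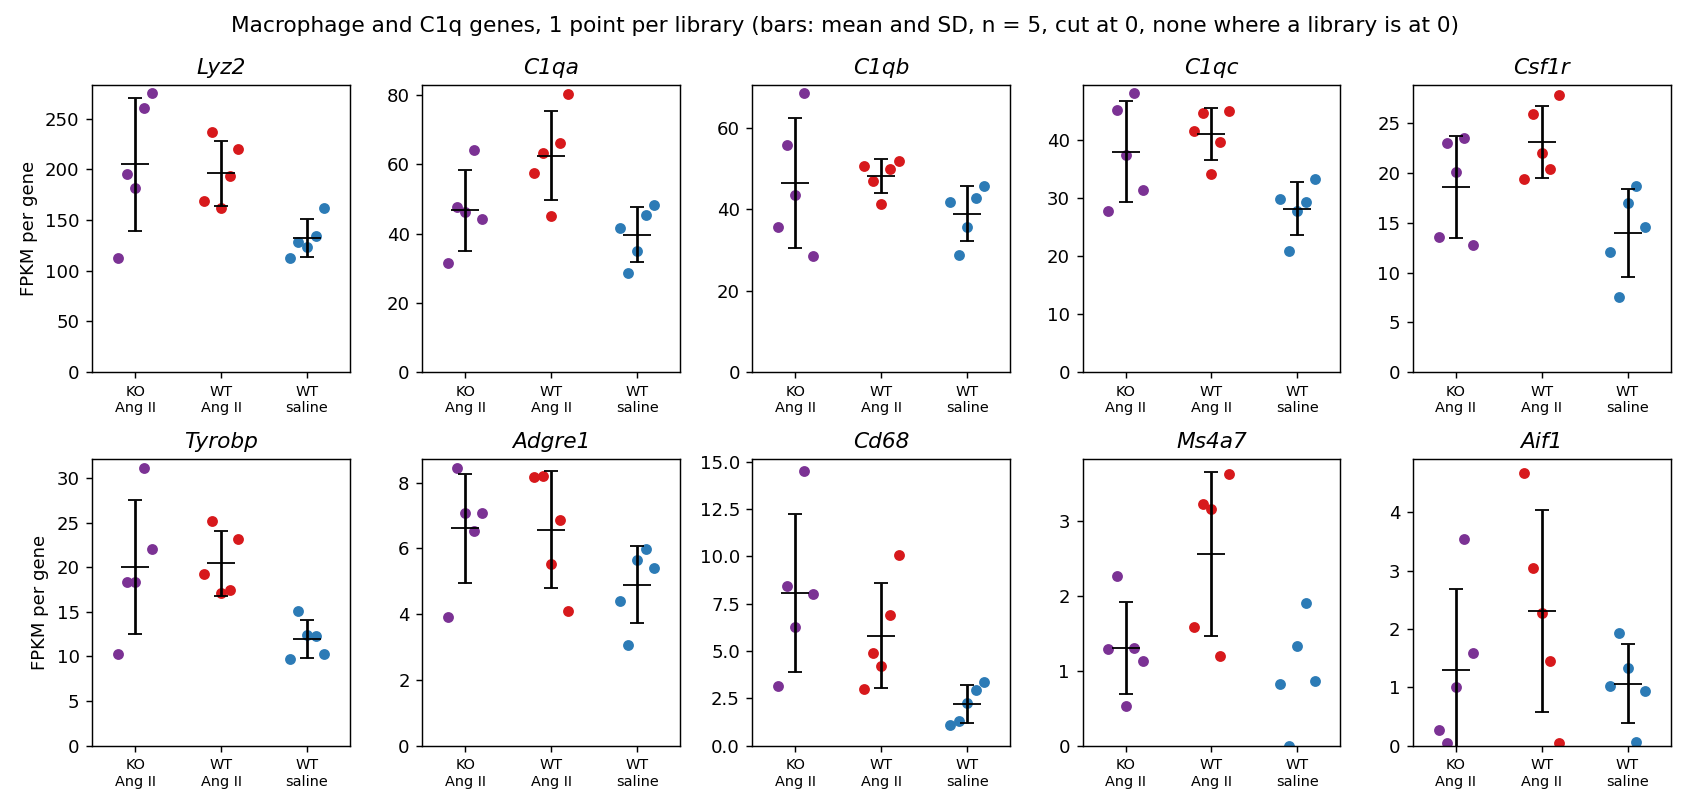
FPKM of each gene (vertical axes, each starting at 0) in the 5 libraries of KO Ang II, WT Ang II and WT saline, with mean and SD except where a library is listed at 0. Points of WT Ang II lie wholly above those of WT saline for Csf1r, C1qc and Tyrobp, and the KO Ang II points overlap both other groups for all 10 genes.

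Ang II infusion in WT mice was set against saline to ask what the hormone does to these transcripts in the aorta. All 10 genes had a higher fitted level in WT Ang II than in WT saline, and none of the differences passed the threshold. The fitted difference in log2(FPKM + 1) was between 0.31 for C1qb and 1.06 for Cd68, with a median of 0.60 over the 10 genes against 0.014 over all tested genes. A positive difference was found in 52.6% of all tested genes. At a limma adjusted p under 0.05 the count was 0 of 10 genes, against 0% of all genes, and the members' adjusted p lay between 0.936 and 0.941. Unadjusted p were under 0.05 and positive for 7 of the 10 genes, against 3.06% of all genes, and 617 genes of either direction had an unadjusted p under 0.05. The 0 calls over all genes became 1 without WTNS_550, and 2 without WTAngII580 and WTAngII581, no member being among them. Every WT Ang II library lay above every WT saline library for 3 of the 10, against 0.672% of all genes. These counts describe a list chosen with earlier results of these data known, and they are no test of it.

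Csf1r (chromosome 18, 61100598 to 61132149, plus strand), the receptor on which macrophage survival depends, had 19.4, 25.9, 22.0, 20.4 and 27.8 FPKM in WT Ang II libraries and 12.1, 7.54, 17, 18.7 and 14.6 FPKM in WT saline libraries. The groups did not overlap, and the lowest WT Ang II library exceeded the highest WT saline library by a small margin. The log2 difference was 0.73 (SE 0.23, limma adjusted p = 0.940), which corresponds to means of 23.1 ± 3.61 FPKM in WT Ang II and 14.0 ± 4.39 FPKM in WT saline (SD, n = 5 each). Adgre1, an adhesion receptor that serves as the classical surface marker of mouse macrophages, had 8.17, 8.18, 5.54, 6.86 and 4.09 FPKM in WT Ang II and 4.41, 3.07, 5.64, 5.97 and 5.40 FPKM in WT saline. Its groups overlapped widely, with 3 of 5 WT Ang II libraries above all of WT saline and a log2 difference of 0.35 (SE 0.21).

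Cd68, of the lysosomal genes, had the largest difference of the 10 on the scale of log2(FPKM + 1), while with a pseudocount of 0.1 or with voom on recovered reads Ms4a7 exceeded it. It had 2.98, 4.91, 4.20, 6.91 and 10.1 FPKM in WT Ang II and 1.09, 1.29, 2.27, 2.95 and 3.39 FPKM in WT saline. The lowest WT Ang II library fell among the WT saline values and the other 4 lay above them; the log2 difference was 1.06 (SE 0.35, limma adjusted p = 0.940). Lyz2, which codes for an enzyme that cleaves bacterial cell walls, had 168.6, 236.4, 161.6, 193.7 and 219.5 FPKM in WT Ang II and 112.0, 128.3, 123.5, 133.9 and 162.1 FPKM in WT saline. Only WTAngII568 lay below the highest WT saline library, and by a small margin; the log2 difference was 0.56 (SE 0.21, limma adjusted p = 0.941).

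The C1q chains differed in how far the WT groups separated. C1qc had 41.5, 44.8, 34.1, 39.7 and 45.1 FPKM in WT Ang II and 29.9, 20.9, 27.8, 29.3 and 33.3 FPKM in WT saline. The groups did not overlap, and the log2 difference of C1qc, 0.53, had the smallest SE of the 10 genes, 0.16 (limma adjusted p = 0.936). C1qa had 57.5, 63.4, 45.2, 66.1 and 80.4 FPKM in WT Ang II and 41.5, 28.6, 35.0, 45.2 and 48.3 FPKM in WT saline. All but WTAngII568 lay above every WT saline library, and the log2 difference was 0.64 (SE 0.20, limma adjusted p = 0.936). C1qb had 50.8, 47.0, 41.3, 50.04 and 51.9 FPKM in WT Ang II and 41.7, 28.7, 35.7, 42.7 and 45.9 FPKM in WT saline. Here too WTAngII568 was the library inside the WT saline range, but the log2 difference was 0.31 (SE 0.20), the smallest of the 10 genes.

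Of the remaining genes, Tyrobp, the ITAM adaptor, had 19.2, 25.2, 17.1, 17.5 and 23.1 FPKM in WT Ang II and 9.68, 15.1, 12.4, 12.3 and 10.3 FPKM in WT saline. The groups did not overlap, and the log2 difference was 0.73 (SE 0.22, limma adjusted p = 0.936). Ms4a7, a member of the MS4A family of membrane proteins that is enriched in macrophages, had 1.59, 3.23, 3.16, 1.20 and 3.63 FPKM in WT Ang II and 0.828, 0, 1.34, 1.91 and 0.861 FPKM in WT saline, the 0 being WTNS_373. An exact 0 can be a failed estimate, and the log2 difference of 0.87 (SE 0.30, limma adjusted p = 0.940) takes it as it stands. It was 1.69 with a pseudocount of 0.1, 2.53 with voom on the recovered reads, which is a scale of log2 counts per megaread, and 0.64 without WTNS_373. For KO Ang II against WT saline the Ms4a7 difference of 0.26 likewise became 0.76, 1.53 and 0.031, and none of these passed the threshold. Aif1 had 4.67, 3.04, 2.28, 1.45 and 0.0514 FPKM in WT Ang II and 1.03, 1.93, 1.33, 0.0727 and 0.938 FPKM in WT saline. WTAngII581 and WTNS_547 each sat far below their groups, with 3 and 4 reads, and the log2 difference of 0.55 had the largest SE of the members, 0.46. The listed Aif1 value did not follow the other genes: WTAngII581, nearly without Aif1 reads, was the highest of all 15 libraries in C1qa, Csf1r and Ms4a7. That value rests on the transcript ENSMUST00000172693 alone, and whether reads of Aif1 fell on forms not summed here was not tested.

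**Figure D2:**
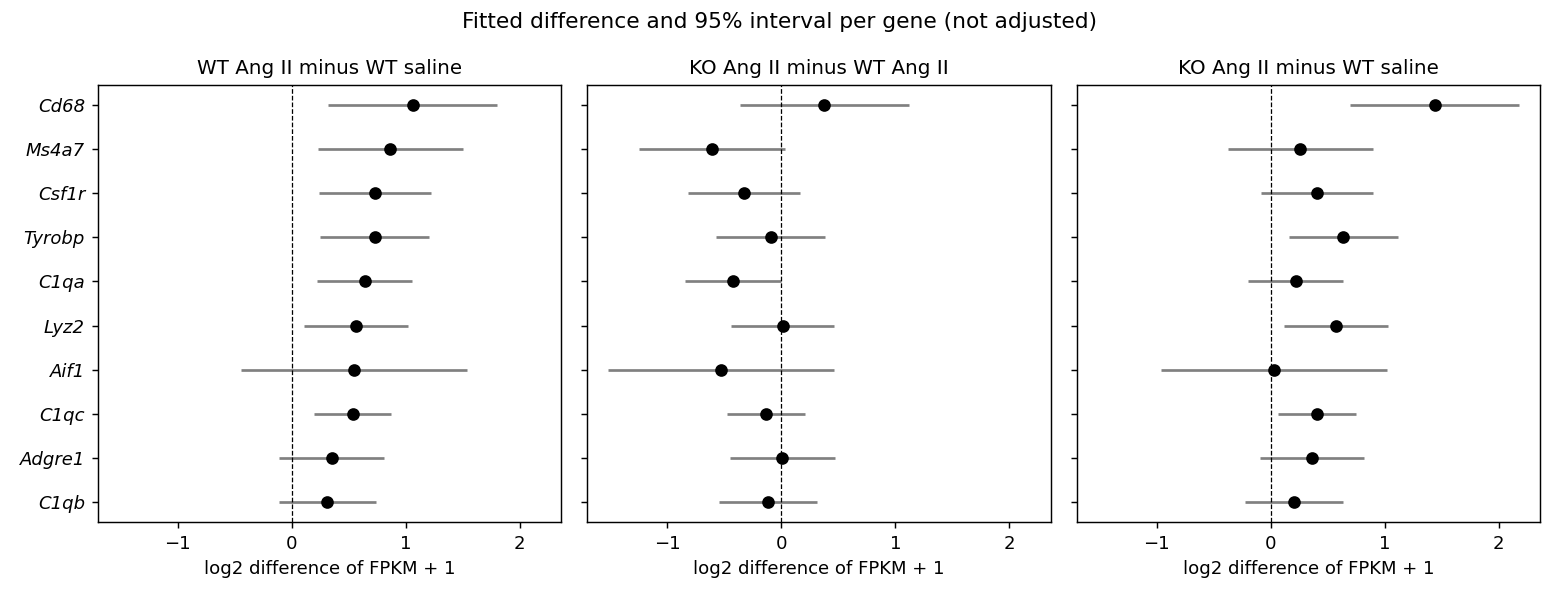
Fitted log2 difference of FPKM + 1 (horizontal axis) with its unadjusted 95% interval for each gene, in the comparisons WT Ang II minus WT saline, KO Ang II minus WT Ang II and KO Ang II minus WT saline. All 10 points are right of 0 against WT saline in both outer panels, 7 of 10 are left of 0 in the middle panel, and no difference passed an adjusted p of 0.05.

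The KO label was examined by setting KO Ang II against WT Ang II. No gene of the 10 passed the threshold, and most differences were small: 7 of 10 were lower in KO Ang II, against 51.4% of all tested genes, and the median was -0.12 against -0.0076 over all genes. The count past a limma adjusted p of 0.05 was 0 of 10, against 0% of all genes, where 1004 genes had an unadjusted p under 0.05. The 0 calls over all genes became 7 without WTAngII580, 2 without WTAngII581 and 6 against WTAngII580 and WTAngII581 alone, no member being among them. For 0 of the 10 genes did all KO Ang II libraries lie below all WT Ang II libraries, against 0.546% of all genes. An unadjusted p under 0.05 with a lower level was reached by 1 of the 10 genes, against 4.24% of all genes.

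That gene was C1qa, with 31.4, 47.6, 46.2, 64.3 and 44.3 FPKM in KO Ang II beside the WT Ang II values given above, and means of 46.8 ± 11.7 FPKM in KO Ang II and 62.5 ± 12.8 FPKM in WT Ang II (SD, n = 5 each). The groups overlapped, and the log2 difference was -0.42 (SE 0.20, limma adjusted p = 0.622). C1qb had 35.8, 55.8, 43.6, 68.6 and 28.6 FPKM in KO Ang II, against 41.3 to 51.9 FPKM in WT Ang II. The KO Ang II libraries lay on both sides of the narrow WT Ang II range, and the log2 difference was -0.11 (SE 0.20). C1qc had 27.7, 45.2, 37.4, 48.2 and 31.5 FPKM in KO Ang II, with a log2 difference of -0.13 (SE 0.16), and 2 of its 5 libraries lay above all of WT Ang II.

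Csf1r had 13.6, 23.1, 20.1, 23.5 and 12.8 FPKM in KO Ang II, and KOAng_II402 and KOAngII628 lay below every WT Ang II library. The log2 difference of Csf1r was -0.33 (SE 0.23, limma adjusted p = 0.669), and that of Adgre1, with 3.90, 8.45, 7.06, 6.52 and 7.07 FPKM in KO Ang II, was 0.0086 (SE 0.21). The 95% interval of the Adgre1 difference ran between -0.45 and 0.47, so differences up to that size in either direction cannot be told from none here. Ms4a7 had 1.29, 2.26, 0.537, 1.31 and 1.13 FPKM in KO Ang II, and no KO Ang II library reached the 3 highest WT Ang II libraries. Its log2 difference was -0.61 (SE 0.30, limma adjusted p = 0.623). Aif1 had 0.271, 0.0498, 0.998, 3.54 and 1.59 FPKM in KO Ang II, KOAngII537 resting on 3 reads, and its log2 difference was -0.53 (SE 0.46).

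Cd68 and Lyz2 ran the other way or level. Cd68 had 3.13, 8.42, 6.26, 14.5 and 8.03 FPKM in KO Ang II, a log2 difference of 0.38 (SE 0.35, limma adjusted p = 0.743) against WT Ang II. It was 0.15 without KOAngII612, 0.21 without WTAng_II519, 0.63 without KOAng_II402 and 0.58 without WTAngII581, and -0.17 against WTAngII580 and WTAngII581 alone. The Cd68 sum of KO Ang II includes a processed transcript without a coding sequence that only the KO Ang II table lists, at 0.383 to 2.0 FPKM, and that of Csf1r a coding transcript at 0.0356 to 1.49 FPKM. Lyz2 had 112.2, 195.2, 181.4, 260.7 and 275.0 FPKM in KO Ang II. Its lowest and its highest KO Ang II libraries lay outside the WT Ang II range on both sides, and the log2 difference was 0.012 (SE 0.21). Tyrobp had 10.3, 18.3, 18.3, 31.1 and 22.0 FPKM in KO Ang II, with a log2 difference of -0.092 (SE 0.22) and again a library above and a library below the whole of WT Ang II.

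KO Ang II was also set against WT saline. That comparison differs in both genotype and infusion, and it shares its KO Ang II libraries with the one above and its WT saline libraries with the first. All 10 genes had a higher fitted level in KO Ang II than in WT saline, against 52.7% of all genes, with a median log2 difference of 0.38 against 0.016 over all genes. At a limma adjusted p under 0.05 the count was 0 of 10, against 0.103% of all genes, which is 13 genes. Genes of a list of intestinal markers, described below, were among the 13. The groups overlapped for all 10, so 0 of 10 had every KO Ang II library above every WT saline library, against 0.854% of all genes. An unadjusted p under 0.05 with a higher level was reached by 4 of the 10 (Cd68, Tyrobp, Lyz2 and C1qc), against 4.06% of all genes. Cd68 averaged 8.07 ± 4.15 FPKM in KO Ang II and 2.20 ± 1.01 FPKM in WT saline (SD, n = 5 each), with 4 of 5 KO Ang II libraries above every WT saline library. Its log2 difference was 1.44 (SE 0.35, limma adjusted p = 0.213). Without the transcript that only the KO Ang II table lists, the Cd68 values of KO Ang II were 2.71, 7.90, 5.88, 12.5 and 7.57 FPKM. Tyrobp differed by 0.64 (adjusted p = 0.436), Lyz2 by 0.57 (adjusted p = 0.470) and C1qc by 0.40 (adjusted p = 0.515).

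On the mean over the 10 genes, the KO Ang II libraries were spread more widely than those of the other groups. This did not hold for each gene: the SD of Adgre1, Aif1, C1qa and Ms4a7 FPKM was larger in WT Ang II than in KO Ang II. The difference in spread was not tested. The mean of log2(FPKM + 1) over the 10 genes was 3.51, 4.17, 4.00, 4.57 and 4.05 in KO Ang II, 4.21, 4.43, 4.10, 4.17 and 4.29 in WT Ang II, and 3.51, 3.31, 3.70, 3.74 and 3.77 in WT saline. Every WT Ang II library lay above every WT saline library on this joint level, while KOAng_II402 lay within the WT saline range and KOAngII612 above all other libraries. The SD of the joint level was 0.38 in KO Ang II, 0.13 in WT Ang II and 0.19 in WT saline (n = 5 each). KOAngII612 was the highest of the 15 libraries for 4 of the 10 genes, and WTNS_373 the lowest for 5 of the 10. Brown adipocyte markers, led in level by Ucp1 and Cidea, summed to 2102 FPKM in KOAng_II402 and 3078 FPKM in WTNS_373, while the ranges were 337.1 to 2347 FPKM in KO Ang II, 139.2 to 2360 FPKM in WT Ang II and 547.9 to 3078 FPKM in WT saline. WTAngII580, with 2360 FPKM of these markers, had a joint level inside the WT Ang II range. With brown adipocyte markers as a covariate the median difference of the 10 genes between WT Ang II and WT saline was 0.54, and with smooth muscle markers 0.59. Brown adipocyte markers themselves differed between these groups, 6 of 7 being lower in WT Ang II with a median of -1.03. The part of tissue makeup in the joint level was not tested.

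**Figure D3:**
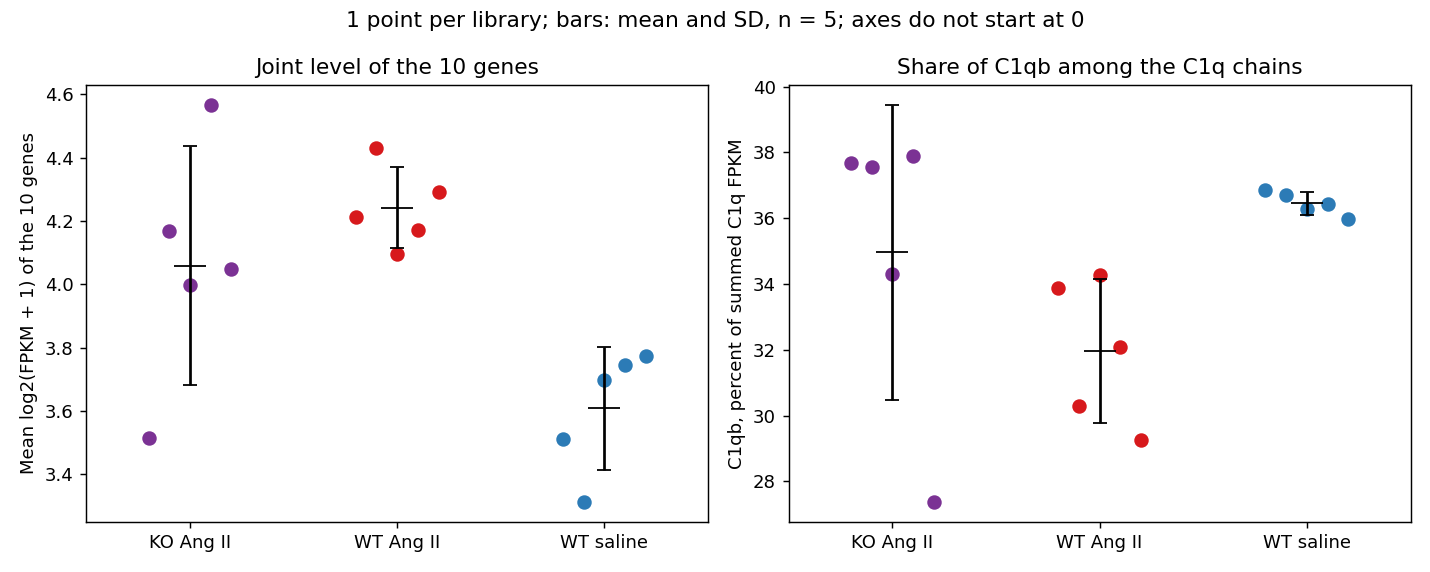
Left, mean log2(FPKM + 1) of the 10 genes per library; right, C1qb as a percentage of the summed FPKM of C1qa, C1qb and C1qc; horizontal positions are the groups KO Ang II, WT Ang II and WT saline, bars are mean and SD (n = 5 each), and the vertical axes do not start at 0. WT Ang II lies above WT saline on the left and below it on the right, and KO Ang II spans both.

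The genes varied together across libraries to different degrees. Over the 45 pairs of members the median Pearson's r of log2(FPKM + 1) across the 15 libraries was 0.57, and 42 pairs were positive. The C1q chains were close to each other, with r of 0.885 between C1qa and C1qc, 0.860 between C1qb and C1qc and 0.759 between C1qa and C1qb. C1qc followed the other 9 genes most closely (r = 0.942, Spearman's rho = 0.936) and Aif1 least (r = 0.159, rho = 0.193). These are descriptions across libraries that share the groups, and no p is attached.

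The C1q chains also differed in their shares of the C1q sum. C1q is assembled from equal numbers of A, B and C chains, so their transcripts can be set against each other. C1qa exceeded C1qb in 2 of 5 KO Ang II, 5 of 5 WT Ang II and 2 of 5 WT saline libraries. C1qb made up 33.9%, 30.3%, 34.3%, 32.1% and 29.2% of the summed C1q FPKM in WT Ang II, a mean of 32.0% ± 2.19, and 36.5% ± 0.352 in WT saline (SD, n = 5 each). The groups did not overlap, and the WT saline libraries lay within 36.0% to 36.9%. The difference of -4.50 percentage points had an exact two-sided permutation p of 0.00794, the smallest that 5 against 5 libraries can give, and 0.0714 after Benjamini-Hochberg adjustment over the 9 share comparisons; this measure was chosen after the values were seen. Leaving out any 1 library left the difference between -5.08 and -3.82 percentage points. C1qa took 40.9% ± 3.16 in WT Ang II and 37.1% ± 1.20 in WT saline (n = 5 each; exact permutation p = 0.0397, adjusted 0.119). In KO Ang II the C1qb share was 37.7%, 37.6%, 34.3%, 37.9% and 27.4%, with KOAngII628 below all others, and it differed from WT Ang II by 3.0 percentage points (exact permutation p = 0.206, adjusted 0.310, n = 5 each). The C1qc share was 29.2% ± 1.51 in KO Ang II and 26.5% ± 1.16 in WT saline (n = 5 each; exact permutation p = 0.0238, adjusted 0.107).

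Lyz1, the P lysozyme that in the mouse is a product of Paneth cells of the intestine, was set beside Lyz2. It had 10.9, 14.8, 22.7, 10.8 and 15.6 FPKM in KO Ang II, 8.33, 14.0, 6.86, 20.9 and 16.3 FPKM in WT Ang II and 3.63, 7.68, 5.24, 3.95 and 5.36 FPKM in WT saline. Every KO Ang II library lay above every WT saline library, and 4 of 5 WT Ang II libraries did. The log2 difference was 1.36 for KO Ang II against WT saline (SE 0.28, limma adjusted p = 0.130), 0.21 for KO Ang II against WT Ang II (SE 0.28) and 1.14 for WT Ang II against WT saline (SE 0.28, limma adjusted p = 0.795). The other genes of a list of Paneth cell and intestinal epithelium markers summed to 38.8 to 89.0 FPKM in KO Ang II. In WT Ang II they summed to 29.8 FPKM in WTAngII580 and 25.8 FPKM in WTAngII581, and to 1.54 to 3.93 FPKM in the other 3 libraries. In WT saline they summed to 2.28 to 6.50 FPKM. Ang4, Itln1, Reg3g and Vil1 are in these sums but are not listed in the WT tables, where they count as 0; without them the KO Ang II sums were 33.0 to 79.6 FPKM. Of the 13 genes of the list that the tables of all 3 groups hold, 10 were at 0 in every WT saline library and 0 were at 0 in every WT Ang II library. Reg3b, an antimicrobial lectin of the gut, had 7.23 to 11.9 FPKM in KO Ang II, 0 to 5.18 FPKM in WT Ang II and 0 FPKM in every WT saline library. Most tested genes of this list passed the filter on low values through the libraries where they are high, so calls among them are not counted here. The part of intestinal transcripts in the values of Lyz2 was not tested. Lyz1 made up 3.97% to 11.1% of the paired lysozyme FPKM in KO Ang II, 4.07% to 9.72% in WT Ang II and 2.86% to 5.65% in WT saline. With Lyz1 and Lyz2 added up to 1 value, an alternative chosen after the values were seen, the log2 difference was 0.63 for KO Ang II against WT saline, 0.028 for KO Ang II relative to WT Ang II and 0.60 for WT Ang II against WT saline. Without WTAngII580 and WTAngII581 the median difference of the 10 genes between WT Ang II and WT saline was 0.60, and 4 of the 10 (Aif1, C1qc, Csf1r and Tyrobp) had no overlap between the groups, where fewer libraries left 4.31% of all genes without overlap. Without WTNS_373 the same 3 genes as before had no overlap, against 1.09% of all genes.

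**Figure D4:**
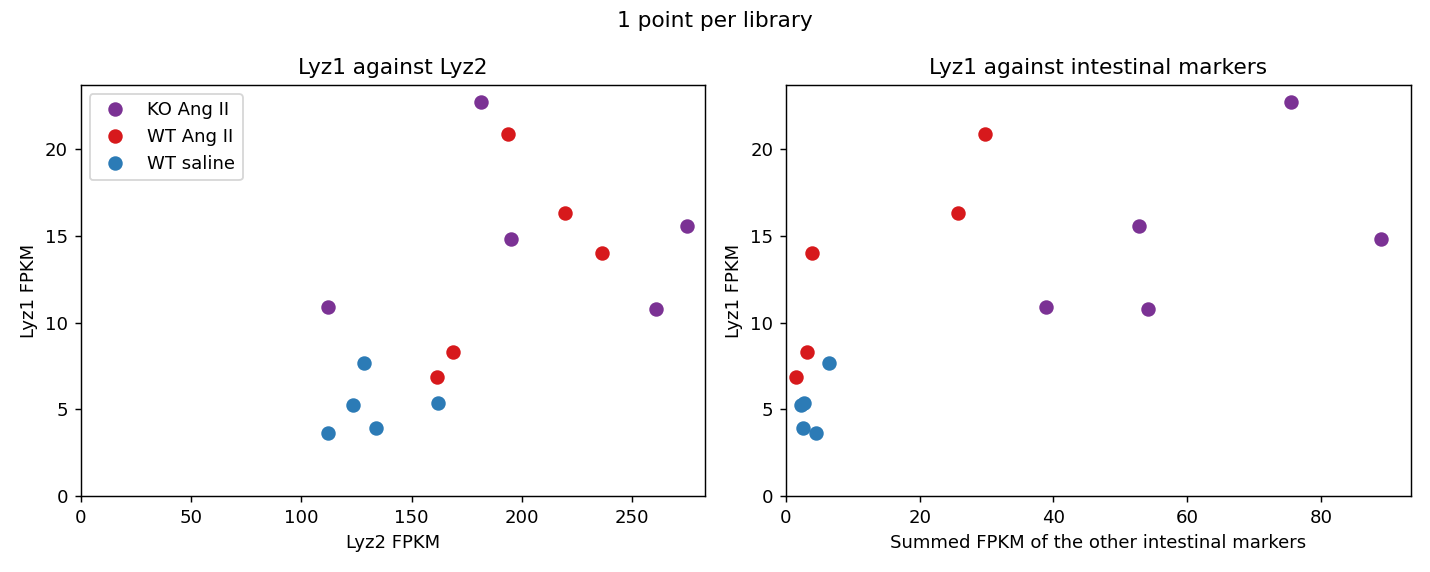
Lyz1 FPKM (vertical axes) against Lyz2 FPKM (left) and against the summed FPKM of the other intestinal markers (right), 1 point per library of KO Ang II, WT Ang II and WT saline. The KO Ang II points stand at 38.8 or more on the right-hand axis, 2 WT Ang II points stand between 25 and 30, and the rest lie near 0.

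At the level of transcripts, Adgre1 was split between a pair of annotated forms with the same coding sequence of 2796 bases that differ outside it. ENSMUST00000004850 was listed at 0 in 8 of 15 libraries and reached 7.58 FPKM in WTAng_II536, while ENSMUST00000086763 was above 0 in all 15 and lay between 0.539 and 8.17 FPKM. The split between the forms varied from library to library within each group, and the sum per gene was therefore used.

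The genes around these members were examined through lists ordered by role, leaving out the members themselves. In the comparison of WT Ang II with WT saline no gene of these role lists passed the limma adjusted p of 0.05. In the CSF1 receptor axis, which holds the ligands and the transcription factors of the macrophage programme, 6 of 8 tested genes were higher in WT Ang II and 2 lower, with a median of 0.18. Its most abundant genes were Cebpa, a transcription factor that adipocytes also express, and Csf1, the main ligand of the receptor. Csf1 averaged 18.3 ± 4.02 FPKM in KO Ang II, 27.8 ± 7.46 FPKM in WT Ang II and 24.8 ± 7.30 FPKM in WT saline (SD, n = 5 each). Cebpa averaged 80.6 ± 30.5 FPKM in KO Ang II, 42.7 ± 25.2 FPKM in WT Ang II and 70.8 ± 32.5 FPKM in WT saline (SD, n = 5 each). Among ITAM adaptors and their partner receptors, 11 of 11 genes other than Tyrobp were higher in WT Ang II, with a median of 0.27, and 11 of 11 were higher in KO Ang II than in WT saline, with a median of 0.25. Between KO Ang II and WT Ang II, 7 of the 11 were higher in KO Ang II and 4 lower, with a median of 0.087. The most abundant were the Fc receptor Fcgr3, with a log2 difference of 0.46 (SE 0.20) between WT Ang II and WT saline, and its signalling chain Fcer1g, with 0.24 (SE 0.19).

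The rest of the classical complement pathway was 6 higher and 2 lower of 8 tested genes in WT Ang II against WT saline, with a median of 0.20, and 2 higher and 6 lower in KO Ang II set against WT Ang II, with a median of -0.26. Serping1, the C1 inhibitor, averaged 281.1 ± 86.3 FPKM in KO Ang II, 328.6 ± 27.0 FPKM in WT Ang II and 301.0 ± 19.0 FPKM in WT saline (SD, n = 5 each). C3, the central component, averaged 289.1 ± 110.3 FPKM in KO Ang II, 253.7 ± 55.5 FPKM in WT Ang II and 288.9 ± 65.6 FPKM in WT saline (SD, n = 5 each). Complement receptors and regulators were 10 higher and 3 lower of 13, with a median of 0.16, led in level by Cfd and Clu. The lysosomal and phagocyte enzymes were 20 higher and 5 lower of 25, with a median of 0.13, and Psap, the saposin precursor, differed by 0.056 (SE 0.10) where Ctsd, cathepsin D, differed by -0.30 (SE 0.27). The other MS4A genes were higher in 5 of 5 cases with a median of 0.20, Ms4a4d and Ms4a4a being the most abundant. The adhesion receptors related to Adgre1 were 2 higher and 1 lower of 3, with a median of 0.010, led by Adgre5.

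For WT Ang II against WT saline, macrophage and MHC class II lists without any of the 10 genes lay mostly in the members' direction. The other macrophage markers share genes with the role lists above, so these counts are not separate. Laptm5 and Ctss are also in the lysosomal list, and Fcer1g is also among the ITAM adaptors. Of 17 other macrophage markers 15 were higher in WT Ang II than in WT saline, with a median of 0.35, and they summed to 168.2 to 271.3 FPKM in KO Ang II, 172.2 to 235.5 FPKM in WT Ang II and 121.6 to 188.2 FPKM in WT saline. Axl, a receptor for dying cells that fibroblasts and smooth muscle also express, and Ctss, a lysosomal protease, were the most abundant of them. Between KO Ang II and WT Ang II, 12 of the same 17 markers were higher in KO Ang II and 5 lower, with a median of 0.083. Of 16 markers of resident macrophages 15 were higher in WT Ang II than in WT saline, with a median of 0.53, and 14 were lower in KO Ang II than in WT Ang II, with a median of -0.34. Between the same groups 8 of 10 smooth muscle markers were lower in KO Ang II with a median of -0.41, 9 of 10 fibroblast markers with -0.31, 7 of 10 endothelial markers with -0.30 and 5 of 5 erythroid markers with -0.89. Brown adipocyte markers were higher in KO Ang II for 6 of 7 genes with a median of 0.999, white adipocyte markers for 8 of 8 with 0.37 and Schwann cell markers for 8 of 8 with 0.69. Sympathetic neuron markers were higher in KO Ang II for 9 of 10 with 1.85 and neutrophil markers for 6 of 7 with 0.86. Skeletal muscle markers were lower in KO Ang II for 7 of 7 with -0.71. The sympathetic neuron markers summed to 54.1 to 1119 FPKM in KO Ang II and 33.1 to 197.7 FPKM in WT Ang II. None of these genes passed the threshold, and the part of tissue makeup in the resident macrophage values was not tested. The most abundant of the resident macrophage markers, Cbr2, had 160.8 ± 27.5 FPKM in KO Ang II, 236.7 ± 58.5 FPKM in WT Ang II and 185.3 ± 55.7 FPKM in WT saline (SD, n = 5 each). Gas6, a ligand of the phagocytic receptors Axl and Mertk, had 181.1 ± 49.9 FPKM in KO Ang II, 222.7 ± 30.7 FPKM in WT Ang II and 176.6 ± 26.9 FPKM in WT saline (SD, n = 5 each). All 7 tested MHC class II genes were higher in WT Ang II than in WT saline, with a median of 1.03, and they summed to 170.0 to 254.6 FPKM in KO Ang II, 185.8 to 435.3 FPKM in WT Ang II and 97.2 to 167.1 FPKM in WT saline. Cd74, the invariant chain that escorts MHC class II, had 94.4 ± 15.4 FPKM in KO Ang II, 130.8 ± 38.3 FPKM in WT Ang II and 60.2 ± 12.9 FPKM in WT saline (SD, n = 5 each), with a log2 difference of 1.09 between WT Ang II and WT saline (SE 0.21, limma adjusted p = 0.393). H2-Aa, an alpha chain of MHC class II, had 45.3 ± 9.25 FPKM in KO Ang II, 59.8 ± 25.3 FPKM in WT Ang II and 25.5 ± 7.98 FPKM in WT saline (SD, n = 5 each). Of 9 monocyte markers 4 were higher and 5 lower in WT Ang II than in WT saline, with a median of -0.023. They were led in level by Fn1 at 615.2 FPKM and Ace at 129.1 FPKM over the 15 libraries. The part of monocytes in these values was not tested. Of 4 dendritic cell markers 2 were higher and 2 lower in WT Ang II than in WT saline, with a median of 0.12.

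Erythroid markers, the most abundant list of blood cell markers, summed to 1612 to 6707 FPKM in KO Ang II, 1702 to 11991 FPKM in WT Ang II and 1987 to 7251 FPKM in WT saline. T and NK cell markers summed to 0.772 to 6.32 FPKM in KO Ang II, 0.966 to 4.21 FPKM in WT Ang II and 0.396 to 1.43 FPKM in WT saline, and none was abundant enough to be tested. B cell markers summed to 9.77 to 41.3 FPKM in KO Ang II, 3.79 to 17.9 FPKM in WT Ang II and 1.90 to 13.2 FPKM in WT saline. Neutrophil markers summed to 6.86 to 259.4 FPKM in KO Ang II, 5.71 to 39.3 FPKM in WT Ang II and 6.60 to 54.3 FPKM in WT saline, and the value of 259.4 was KOAngII628, the library with the highest Lyz2. S100a8 and S100a9, alarmins abundant in neutrophils and the highest of that list, reached 80.9 and 85.8 FPKM in KO Ang II, 17.4 and 8.15 FPKM in WT Ang II and 18.2 and 21.3 FPKM in WT saline. Mast cell markers summed to 12.1 to 37.0 FPKM in KO Ang II, 23.2 to 69.4 FPKM in WT Ang II and 12.6 to 26.4 FPKM in WT saline. The part of these cells in the levels of the 10 genes was not tested. Of 10 endothelial markers 8 were higher in WT Ang II than in WT saline, with a median of 0.037. So were 8 of 10 fibroblast markers with a median of 0.16 and 9 of 10 smooth muscle markers with 0.27. Mast cell markers were higher for 5 of 6 with a median of 0.89. Brown adipocyte markers were higher for 1 of 7 with -1.03 and sympathetic neuron markers for 1 of 10 with -1.04. Skeletal muscle markers were higher for 0 of 7 with -1.13. In WT saline the sympathetic neuron markers summed to 40.7 to 630.6 FPKM and the skeletal muscle markers to 1.75 to 245.7 FPKM. The part of these tissues in the levels of the 10 genes was not tested. In the lists of other cell types 0 genes passed the threshold in any of the 3 comparisons, apart from the intestinal list in KO Ang II against WT saline.

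Outside the members, the 10 tested genes whose pattern was most like the mean of the members' standardised log2 levels over the 15 libraries were Laptm5, Pld4, Ctss, Ptafr, F13a1, C3ar1, Ctbs, Lilrb4a, Ctsc and Fcgr3. Laptm5, a lysosomal membrane protein of blood cells, had r = 0.954 (rho = 0.932) and a mean of 13.9 FPKM. Pld4 had r = 0.937 (rho = 0.946), and Ctss, the cathepsin that trims the invariant chain, r = 0.926 (rho = 0.911). The list reached down to Fcgr3 at r = 0.847 (rho = 0.850). Within groups, after each group's mean was taken off, r was 0.958 for Laptm5, 0.865 for Pld4 and 0.914 for Ctss, and without the 2 libraries farthest from the median of the members' mean, KOAngII612 and WTNS_373, it was 0.919 for Laptm5, 0.925 for Pld4 and 0.897 for Ctss. Of these 10 genes, C3ar1 codes for the receptor of the complement fragment C3a, and F13a1 for a transglutaminase subunit of coagulation that resident macrophages express. The libraries share depth, groups and tissue makeup, and these correlations have no p.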

How the data were processed

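Per the labels' protocols, TRIzol was used to extract total RNA and a NEBNext Ultra kit to prepare libraries. The submitters' processing notes name bcl2fastq, FastQC, fastp and the mouse build mm10, while the tools for alignment and quantification are not stated there. The authors deposited FPKM per transcript for each library; the unit was read from the values, of which at least 98.7% of those under 50 reads in the 15 libraries used fell within 0.05 of a whole number of reads. From there Ensembl transcripts were named by GENCODE M21 and added up per gene, an unlisted transcript counting as 0. Ensembl transcripts were 32654 of the 49773 listed for WT and 32945 of the 49714 listed for KO Ang II. The others were not used. Genes with a transcript in both the WT and the KO Ang II tables and a mean of at least 1 FPKM were kept. limma 3.58.1 in R 4.3.3 (trend and robust) was fitted to log2(FPKM + 1) of all 15 libraries, with Benjamini-Hochberg adjustment over 12645 genes and a threshold of 0.05; such differences understate changes of low genes. Python 3.11.15 and SciPy 1.17.1 gave the exact permutation tests. The design was written for a count model as an alternative, which needs counts and was not run; limma's voom on the recovered reads took its place. The members and lists were chosen with earlier results of these data known. Named are the 10 members, from each role list the genes past the threshold or else the 2 with the highest mean FPKM, from cell type lists at most the 2 highest, and the 10 non-members most like the members. Alternatives covered the pseudocount, the filter, unlisted transcripts, scaling, sample weights, tissue covariates and leaving out each library.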

Additional observations from a re-analysis of the deposited data

Results flagged for a closer look

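Lyz2 made up 63.7% of the summed FPKM of the 10 genes in the KO Ang II library KOAngII628, far from the other 4 KO Ang II libraries, which lay between 46.8% and 50.1%. The gap to the nearest of them was 0.804 of the whole range of the group. It was the single such value among 51 groups of libraries looked at, and chance alone marks about 1 in 20 groups. In the same library neutrophil markers summed to 259.4 FPKM, while the other KO Ang II libraries reached at most 58.6 FPKM, and C1qb took 27.4% of the C1q chains. The part of neutrophil transcripts in the Lyz2 value was not tested.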

How the results depend on the processing

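No paired analysis was possible because the groups share no library numbers. A planned count model was not run because the values are FPKM. Under every alternative run, 0 of the 10 genes passed the threshold in any comparison; the lowest adjusted p was 0.368 for WT Ang II against WT saline, 0.148 for KO Ang II set against WT Ang II and 0.0925 for KO Ang II against WT saline. The median difference lay between 0.53 and 0.71 for WT Ang II against WT saline, -0.27 and -0.032 for KO Ang II relative to WT Ang II, and 0.22 and 0.50 for KO Ang II against WT saline. Of 229 refitted differences of single genes in the first comparison 0 changed sign, of 229 in the second 19 and of 219 in the third 8. For KO Ang II against WT Ang II, quantile normalization gave -0.0091 for Adgre1, voom gave -0.018 for Adgre1 and -0.018 for Lyz2, sample weights gave -0.14 for Lyz2, and the smooth muscle covariate gave -0.016 for Lyz2. Against WT Ang II libraries alike in intestinal transcripts (WTAngII580 and WTAngII581), Aif1 gave 0.31, Cd68 -0.17 and Lyz2 -0.077. Leaving out single libraries gave ranges of -0.13 to 0.16 for Adgre1, -0.27 to 0.042 for C1qb, -0.11 to 0.21 for Lyz2 and -0.26 to 0.11 for Tyrobp. For KO Ang II against WT saline, Aif1 gave -0.13 with a pseudocount of 0.1, -0.033 with quantile normalization, -0.13 with sample weights, -0.26 with voom and -0.27 to 0.26 without single libraries, and C1qa gave -0.011 with sample weights. The cause was not tested. Over all genes the 0 calls of KO Ang II relative to WT Ang II became 7 without WTAngII580, 2 without WTAngII581 and 6 against WTAngII580 and WTAngII581 alone, and the 0 calls of WT Ang II against WT saline became 1 without WTNS_550 and 2 without WTAngII580 and WTAngII581. The 13 calls of KO Ang II against WT saline included genes of the intestinal list. The count of 13 became 30 with sample weights and 0 with a mean of at least 5 FPKM. It became 7 without KOAngII537 and 8 without WTNS_547. Reads limit Aif1 and Ms4a7, which fall to 3 and 0 reads in single libraries.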
